A study of Mus musculus with 9 samples.

Results

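The genes described here are 50 cell cycle and DNA replication genes of mouse, 27 that act around S phase and 23 that act in mitosis, chosen by gene symbol from a fixed list and all found among the 18571 genes of the deposited expression table. They were read in poly-A RNA of microglia, the macrophages that live in brain tissue, which were captured on plates coated against CD45 from cortex and hippocampus of 9-month-old mice on a C57BL/6J background. CD45 is carried by all white blood cells, so the capture does not separate microglia from blood leukocytes. The 3 groups were wild type mice (WT), mice with the APP/PS1 amyloid transgenes, and APP/PS1:Cx3cr1-CreER:Cx43-flox/flox mice (Cx43 cKO), in which a tamoxifen-activated recombinase made from the Cx3cr1 locus can delete the gap junction gene Cx43 (Gja1). Tamoxifen, 0.1 mg/g by gavage on 5 days at 8 months of age, is given in the labels of all 3 groups, and the labels of WT and APP/PS1 list neither the recombinase nor a floxed allele. Each group had 3 libraries. The labels do not say that they came from separate mice, so p-values measure the spread between these libraries, which may be technical.

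Total estimated counts ran from 18907681 to 19565354 per library. Gja1 had 682, 642 and 716 counts for WT, 727, 688 and 788 for APP/PS1 and 514, 484 and 539 for Cx43 cKO, lowest in the group with the floxed allele and far from 0. Ddx3y, a gene of the Y chromosome, had 4137 to 4538 counts in the WT and APP/PS1 libraries and 0 to 2 in Cx43 cKO, so that genotype and whatever sets this difference cannot be told apart in any comparison with Cx43 cKO. The 10 microglia markers examined were present in every library, with sums of 19684 to 22998 CPM (counts per 1e+06, on TMM-scaled totals). The spread between libraries of a group was small, a biological coefficient of variation of 3.14% in the edgeR fit.

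A cell that divides first builds the replication machinery. E2F transcription factors, held back by the retinoblastoma family until cyclin-dependent kinases inactivate it, switch on the genes for S phase, and a later wave that is read by the MuvB complex with B-Myb and FoxM1 switches on the genes for mitosis. Adult microglia divide rarely in the healthy brain and more often around injury and amyloid, and proliferating blood progenitors use the same genes.

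To show what sequence the members carry at their starts, promoters were taken from RefSeq on GRCm38.p6, from 250 bases before to 50 bases after the start, and 41 of the 50 members matched. Those of Aurkb, Tpx2, Cdc25c, Ccne2, Ccna2, Kif20a, Gins2, Mcm4 and Gins1 are not used here. Both strands were searched for an E2F site (TTTCCCGC, TTTCGCGC, TTTGCCGC or TTTGGCGC), for the cell cycle homology region (CHR, TTTGAA or TTCGAA), which MuvB reads, and for CCAAT, the box of the factor NF-Y. An E2F site was found in 9 of 23 S phase members (39.1%) and in 1 of 18 mitotic members (5.56%, Cdk1), against 2.6% of all 27025 genes with a promoter and 3.89% of the 14659 genes of the deposited table that have one. The CHR was found in 13 of 18 mitotic members (72.2%) and in 5 of 23 S phase members (21.7%), against 21.7% of all genes and 17.7% of those in the table. CCAAT was found in 16 of 18 mitotic members (88.9%) and 15 of 23 S phase members (65.2%), against 41.1% of all genes and 42.4% of those in the table. Each of the 13 mitotic promoters with a CHR also held CCAAT, a pair that 17.4% of the S phase members, 9.65% of all genes and 8.54% of those in the table held. A match is a description of letters in this window and not a site shown to be bound.

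The promoters printed next, 5′ to 3′ on the strand of the gene with every match in capitals and all 300 bases long, belong to the S phase and the mitotic member with the largest change in each comparison among those with a promoter. Mcm5 and Mki67 were added after their values and matches were seen, because they show an E2F pair and a CHR pair. In APP/PS1 against WT the members were Rrm2 (chr12:24708004-24708303, plus strand) and Plk1 (chr7:122159185-122159484, plus strand). In Cx43 cKO against APP/PS1 they were E2f8 (chr7:48881547-48881846, minus strand) and Cdc20 (chr4:118437294-118437593, minus strand), and in Cx43 cKO against WT they were Dna2 (chr10:62946779-62947078, plus strand) and Cenpe (chr3:135212313-135212612, plus strand). Mcm5 is at chr8:75109259-75109558 on the plus strand and Mki67 at chr7:135716330-135716629 on the minus strand. In Mcm5 an E2F site on each strand shared bases, so that the capitals run together. Plk1, E2f8 and Cdc20 held 1 CHR each, Mki67 held 2, and Dna2 held none of the motifs.
Rrm2: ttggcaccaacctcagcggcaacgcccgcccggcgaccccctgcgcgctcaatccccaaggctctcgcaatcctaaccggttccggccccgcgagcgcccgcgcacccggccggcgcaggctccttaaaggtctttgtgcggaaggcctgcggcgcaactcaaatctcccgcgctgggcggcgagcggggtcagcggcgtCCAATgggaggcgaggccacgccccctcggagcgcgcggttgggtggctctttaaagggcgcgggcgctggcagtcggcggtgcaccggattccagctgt
E2f8: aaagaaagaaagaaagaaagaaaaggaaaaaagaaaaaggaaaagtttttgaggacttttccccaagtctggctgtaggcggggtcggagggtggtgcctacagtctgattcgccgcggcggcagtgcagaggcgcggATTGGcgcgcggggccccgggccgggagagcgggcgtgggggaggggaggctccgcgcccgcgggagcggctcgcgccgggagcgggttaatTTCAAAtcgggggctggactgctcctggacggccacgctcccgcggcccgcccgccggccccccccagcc
Dna2: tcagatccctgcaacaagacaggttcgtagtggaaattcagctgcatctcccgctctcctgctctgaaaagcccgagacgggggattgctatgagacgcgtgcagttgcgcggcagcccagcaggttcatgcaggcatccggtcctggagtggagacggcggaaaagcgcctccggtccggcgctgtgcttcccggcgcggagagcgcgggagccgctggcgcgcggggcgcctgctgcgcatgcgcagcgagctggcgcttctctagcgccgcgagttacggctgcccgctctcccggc
Mcm5: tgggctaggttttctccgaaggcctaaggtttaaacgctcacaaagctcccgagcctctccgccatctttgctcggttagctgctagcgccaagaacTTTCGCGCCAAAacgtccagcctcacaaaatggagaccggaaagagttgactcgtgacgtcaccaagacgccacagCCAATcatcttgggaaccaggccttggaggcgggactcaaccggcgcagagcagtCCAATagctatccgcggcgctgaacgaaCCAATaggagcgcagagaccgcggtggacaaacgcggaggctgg
Plk1: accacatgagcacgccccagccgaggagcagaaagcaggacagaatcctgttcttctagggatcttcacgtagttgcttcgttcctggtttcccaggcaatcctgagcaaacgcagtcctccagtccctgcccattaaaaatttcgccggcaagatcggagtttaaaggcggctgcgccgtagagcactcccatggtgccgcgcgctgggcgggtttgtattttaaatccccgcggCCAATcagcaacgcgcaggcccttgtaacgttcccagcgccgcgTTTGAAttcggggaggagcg
Cdc20: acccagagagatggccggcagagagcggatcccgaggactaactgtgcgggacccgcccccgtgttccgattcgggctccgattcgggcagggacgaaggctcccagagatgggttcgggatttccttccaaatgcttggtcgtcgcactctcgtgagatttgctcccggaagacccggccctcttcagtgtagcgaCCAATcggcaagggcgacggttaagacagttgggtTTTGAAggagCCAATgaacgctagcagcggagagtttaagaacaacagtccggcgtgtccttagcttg
Cenpe: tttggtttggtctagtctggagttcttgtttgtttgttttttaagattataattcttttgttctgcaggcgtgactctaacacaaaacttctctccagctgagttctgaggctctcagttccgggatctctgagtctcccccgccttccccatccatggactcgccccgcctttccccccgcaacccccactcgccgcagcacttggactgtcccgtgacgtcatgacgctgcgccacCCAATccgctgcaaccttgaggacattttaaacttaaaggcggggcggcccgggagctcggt
Mki67: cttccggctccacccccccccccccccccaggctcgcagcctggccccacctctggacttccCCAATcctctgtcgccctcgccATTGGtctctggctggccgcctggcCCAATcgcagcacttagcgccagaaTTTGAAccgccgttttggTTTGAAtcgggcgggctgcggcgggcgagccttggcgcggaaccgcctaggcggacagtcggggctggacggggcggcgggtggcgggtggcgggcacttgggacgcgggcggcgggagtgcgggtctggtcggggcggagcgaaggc

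In APP/PS1 most of the cell cycle genes were low. Against WT, 43 of the 50 members were lower and 2 higher by the edgeR quasi-likelihood test at an adjusted p (Benjamini-Hochberg over 14696 genes) under 0.05, where 32% of all tested genes were called lower and 26.9% higher. At least 2-fold lower were 24 members, against 3.72% of all tested genes. The S phase members (23 of 27 lower, 1 higher) had a median log2 change of -0.78 and the mitotic members (20 of 23 lower, 1 higher) a median of -1.13, beside -0.04 for all tested genes. The 2 that rose were Pcna and Cks2. Gins1, Gins2, Tyms, Cdk1 and Cdc25c did not pass.

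In Cx43 cKO most members stood above both other groups. Against APP/PS1, 45 members were higher and 1 (Pcna) lower by the edgeR test, where 27.3% of all tested genes were called higher and 27.7% lower. At least 2-fold higher were 36 members, against 4.59% of all tested genes. The S phase members (23 of 27 higher) had a median log2 change of 1.05 and the mitotic members (22 of 23 higher) a median of 1.77, beside -0.01 for all tested genes. Gins1, Gins2, Tyms and Cks2 did not pass. The 2 comparisons share the APP/PS1 libraries, so that their values mirror each other in part by construction.

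Against WT the Cx43 cKO libraries were higher in 37 members and lower in 0 by the edgeR test, where 24.7% of all tested genes were called higher and 23% lower. With DESeq2 the count lower was also 0. Every log2 change was positive in the edgeR fit, from 0.06 to 1.01, but the sign depended on the scale for some members. On TPM Pcna (-0.13, limma adjusted p 0.00308) and Cdt1 (-0.13, limma adjusted p 0.0296) passed as lower. The mitotic members (21 of 23 higher, median 0.64) stood farther from 0 than the S phase members (16 of 27 higher, median 0.29), beside -0.01 for all tested genes. Cenpe alone was at least 2-fold higher, against 3.00% of all tested genes. In bulk RNA, more cycling cells and more of these transcripts in each cell cannot be told apart.

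**Figure D1:**
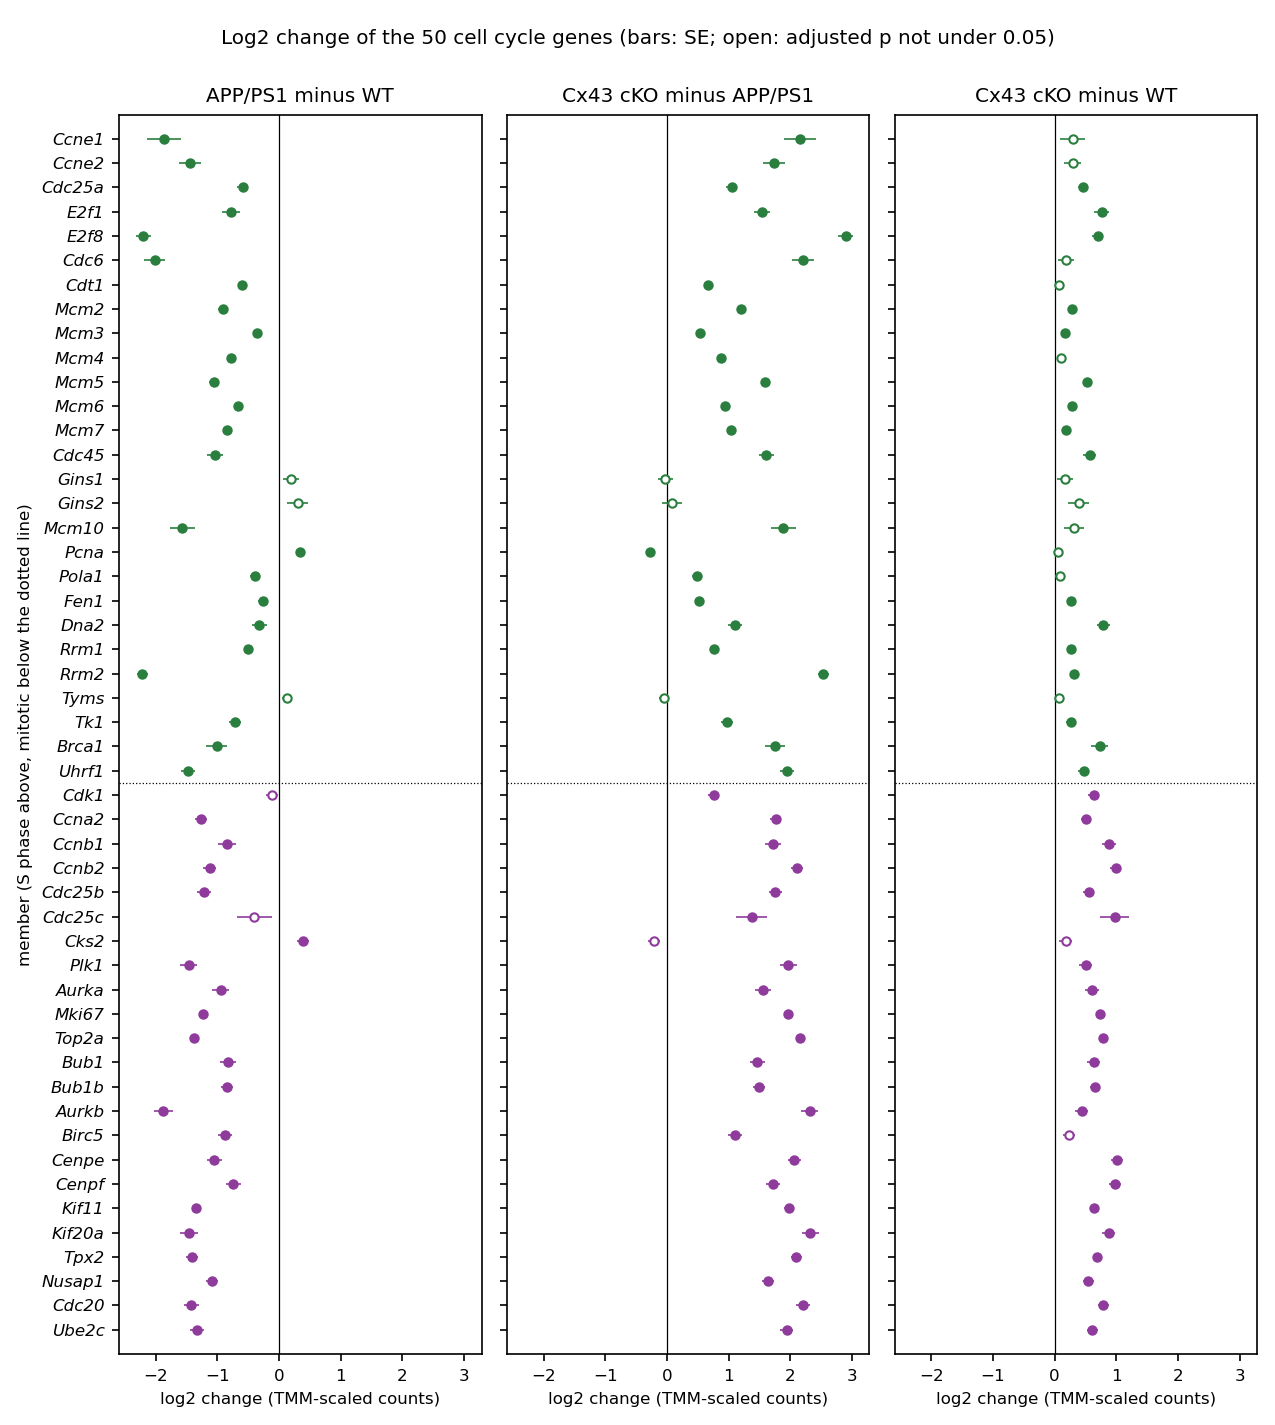
Log2 change (horizontal axis, TMM-scaled counts) of each of the 50 members (vertical axis) in the 3 comparisons, with SE bars; filled points have an edgeR adjusted p under 0.05. Nearly all points lie left of 0 in APP/PS1 minus WT and right of 0 in Cx43 cKO minus APP/PS1, with Pcna, Cks2, Gins1, Gins2 and Tyms standing apart.

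The entry into S phase is driven by cyclin E, its activating phosphatase Cdc25a and the E2F factors. These 5 members were lower in APP/PS1 than in WT and higher in Cx43 cKO relative to APP/PS1 by the edgeR test. Called lower in the first comparison were 32% of all tested genes, and called higher in the second were 27.3%. E2f8, an E2F that represses its targets later in S phase, had 158, 172 and 175 counts for WT, 29, 34 and 37 for APP/PS1 and 254, 246 and 271 for Cx43 cKO. The 3 groups did not overlap, with APP/PS1 lowest and Cx43 cKO highest. It was 4.6-fold lower in APP/PS1 than in WT (log2 -2.20, SE 0.13, edgeR adjusted p 3.77e-14) and 7.45-fold higher in Cx43 cKO relative to APP/PS1 (log2 2.90, SE 0.12, edgeR adjusted p 2.16e-17), the largest change of any member in that comparison. E2f1, the activating E2F that starts the wave, moved less. Its CPM was 5.26 ± 0.75 for WT, 3.06 ± 0.52 for APP/PS1 and 8.94 ± 0.72 for Cx43 cKO (SD, n = 3). The log2 change was -0.78 and then 1.54. Ccne1, a cyclin E, was scarce, with 47, 38 and 44 counts for WT, 10, 6 and 16 for APP/PS1 and 41, 53 and 55 for Cx43 cKO. Its WT and Cx43 cKO counts overlapped and that difference did not pass (log2 0.29, SE 0.20, edgeR adjusted p 0.248), while both differences from APP/PS1 did (-1.87 and 2.16). Ccne2 followed it at -1.44 and 1.74, and Cdc25a at -0.59 and 1.05.

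Origins are licensed by Cdc6 and Cdt1, which load the Mcm2 to Mcm7 helicase on DNA. All 8 licensing members were lower in APP/PS1 than in WT and higher in Cx43 cKO relative to APP/PS1 by the edgeR test, with medians of -0.81 and 0.99. The shares of all tested genes were 32% lower in the first comparison and 27.3% higher in the second. Cdc6 changed most, from 94, 94 and 102 counts for WT to 24, 22 and 19 for APP/PS1 and 118, 89 and 104 for Cx43 cKO. Its WT and Cx43 cKO libraries overlapped, and APP/PS1 lay 4.05-fold below WT (log2 -2.02, SE 0.17). Mcm5 had 448, 539 and 506 counts for WT, 215, 217 and 221 for APP/PS1 and 656, 700 and 668 for Cx43 cKO. It was 2.09-fold lower in APP/PS1 than in WT and 3-fold higher in Cx43 cKO relative to APP/PS1 (log2 1.59, SE 0.07, edgeR adjusted p 6.06e-17), with no overlap between any groups. The other subunits moved unequally: Mcm3 by -0.36 and 0.54, Mcm6 by -0.66 and 0.95, Mcm4 by -0.78 and 0.88, Mcm7 by -0.85 and 1.04, and Mcm2 by -0.91 and 1.20 on the log2 scale. Mcm3 has the highest level of the 6 per length, 21.6 FPKM over all libraries.

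Genes of the replication fork did not all move the same way. Their 8 members had the smallest median changes, -0.29 in APP/PS1 against WT and 0.51 in Cx43 cKO against APP/PS1. Pcna, the clamp that holds polymerases on DNA, went the other way. It had 3083, 3042 and 3229 counts for WT, 3533, 3545 and 3758 for APP/PS1 and 3022, 3067 and 3112 for Cx43 cKO, highest in all 3 APP/PS1 libraries. It was 1.27-fold higher in APP/PS1 than in WT (log2 0.34, SE 0.03, edgeR adjusted p 1.11e-09) and lower again in Cx43 cKO (log2 -0.28, SE 0.03, edgeR adjusted p 5.46e-08). On TPM it did not pass against WT (log2 -0.049, limma adjusted p 0.167). Pcna is also by far the most abundant member, 140 FPKM over all libraries. Gins1 and Gins2, subunits of the replicative helicase, did not pass in any of the 3 comparisons. Gins1 had 79, 95 and 80 counts for WT, 82, 98 and 85 for APP/PS1 and 92, 92 and 85 for Cx43 cKO, and the 3 groups overlapped. Pcna, Gins1 and Gins2 are among the 7 shortest members. With offsets for transcript length Gins1 passed as lower in APP/PS1 than in WT (log2 -0.48, edgeR adjusted p 0.00221). Cdc45, the helicase partner of GINS, had 109, 127 and 108 counts for WT, 49, 53 and 50 for APP/PS1 and 163, 152 and 165 for Cx43 cKO, with no overlap. Mcm10, which helps start the fork, changed by -1.57 and 1.89, and the primase-associated polymerase Pola1 by -0.39 and 0.49. Fen1 and Dna2, nucleases that trim Okazaki fragments, were lower in APP/PS1 by -0.26 and -0.32 and higher in Cx43 cKO relative to APP/PS1 by 0.53 and 1.11. The fall of Dna2 did not pass without WT library 3 (log2 -0.24, edgeR adjusted p 0.150), without APP/PS1 library 3 (-0.23, edgeR adjusted p 0.141), with offsets for transcript length (-0.23, edgeR adjusted p 0.116) or with DESeq2 (-0.30, DESeq2 adjusted p 0.143).

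The supply of nucleotides gave the largest fall and one of the flattest members. Rrm2, the regulated subunit of ribonucleotide reductase, had 356, 340 and 338 counts for WT, 68, 68 and 66 for APP/PS1 and 413, 399 and 401 for Cx43 cKO. No groups overlapped, and it was 4.67-fold lower in APP/PS1 than in WT (log2 -2.22, SE 0.09, edgeR adjusted p 1.79e-17) and 5.81-fold higher in Cx43 cKO relative to APP/PS1 (log2 2.54, SE 0.09). Its partner Rrm1, the large subunit, moved by -0.50 and 0.77. Tk1, which salvages thymidine, moved by -0.71 and 0.98. Tyms, which makes thymidylate, had 347, 354 and 300 counts for WT, 345, 313 and 340 for APP/PS1 and 312, 335 and 347 for Cx43 cKO. All its groups overlapped, with changes of 0.13 (SE 0.07, edgeR adjusted p 0.146) and -0.05 (SE 0.07, edgeR adjusted p 0.592). Uhrf1, which carries DNA methylation over to the new strand, and Brca1, a repair gene, fell by 1.48 and 1.01 in APP/PS1 and were higher by 1.95 and 1.75 in Cx43 cKO than in APP/PS1.

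**Figure D2:**
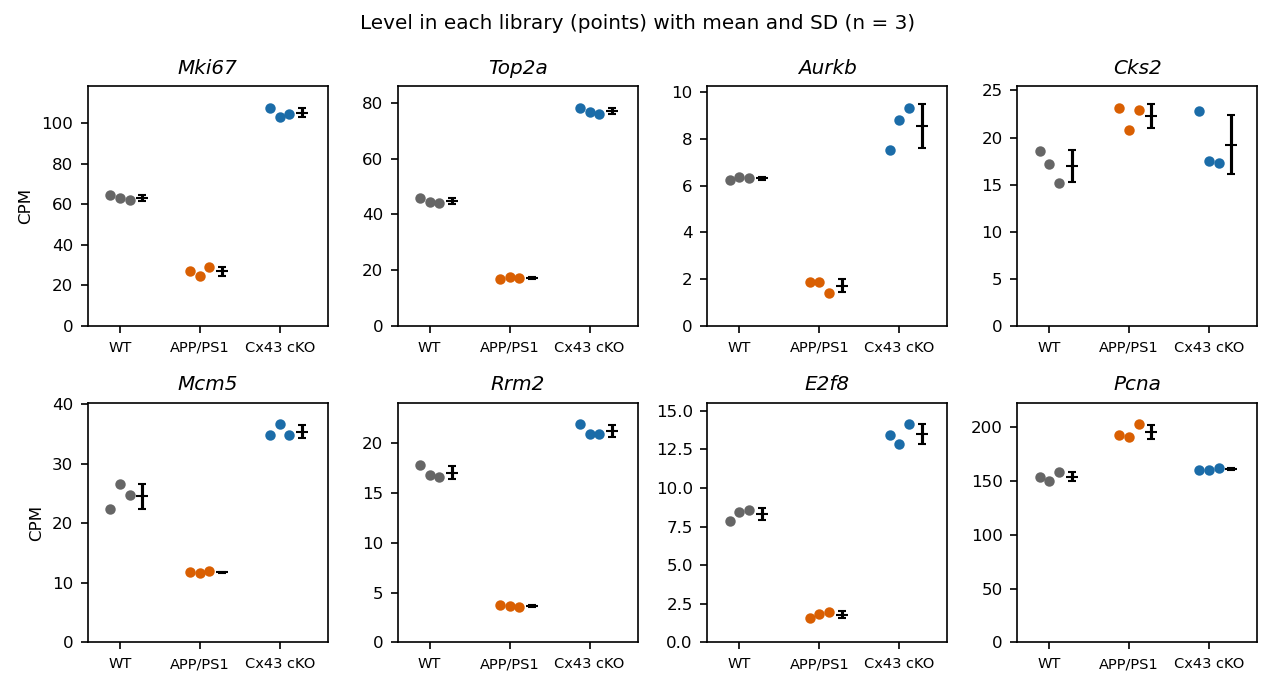
Level in CPM (vertical axis, from 0) of 4 mitotic and 4 S phase members in each library (coloured points) of the 3 groups (horizontal axis), with mean and SD (black). Mki67, Top2a, Aurkb, Mcm5, Rrm2 and E2f8 are lowest in APP/PS1 and highest in Cx43 cKO, while Pcna and the mean of Cks2 are highest in APP/PS1.

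Mki67, the proliferation marker that coats mitotic chromosomes, had 1294, 1276 and 1264 counts for WT, 500, 457 and 538 for APP/PS1 and 2030, 1972 and 2005 for Cx43 cKO. It was 2.34-fold lower in APP/PS1 than in WT (log2 -1.23, SE 0.05, edgeR adjusted p 3.98e-17) and 3.9-fold higher in Cx43 cKO relative to APP/PS1. Top2a, the topoisomerase that untangles sister chromatids, had 920, 903 and 898 counts for WT, 308, 328 and 316 for APP/PS1 and 1477, 1465 and 1461 for Cx43 cKO. The 3 groups lay far apart for both genes, and both were also higher in Cx43 cKO relative to WT, by 1.66-fold for Mki67 and 1.72-fold for Top2a (log2 0.78, SE 0.04, edgeR adjusted p 1.23e-14).

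Entry into mitosis is set by Cdk1 with cyclins A and B, and by the phosphatases and kinases that switch it on. Cdk1 itself stood out among them, with 209, 193 and 178 counts for WT, 173, 172 and 142 for APP/PS1 and 299, 272 and 278 for Cx43 cKO. WT and APP/PS1 overlapped in CPM (9.55 ± 0.86 and 8.79 ± 0.99, SD, n = 3) and did not differ past the threshold (log2 -0.12, SE 0.10, edgeR adjusted p 0.303), while Cx43 cKO was above both. Cdk1 passed as lower in APP/PS1 with library totals in place of TMM factors (log2 -0.26, edgeR adjusted p 0.0242), on log2(FPKM + 1) (-0.17, limma adjusted p 0.0490), on log2(FPKM + 0.1) (-0.25, limma adjusted p 0.0463) and, with the largest change, on log2(TPM + 1) (-0.42, limma adjusted p 0.000796). Its cyclin partners did fall in APP/PS1: Ccna2 by 1.26, Ccnb1 by 0.84 and Ccnb2 by 1.13 on the log2 scale. In Cx43 cKO against APP/PS1 the 3 cyclins were higher by 1.77, 1.72 and 2.12. Cdc25b, a phosphatase that activates Cdk1, changed by -1.21 and 1.76. Its relative Cdc25c had only 15, 26 and 20 counts for WT, 12, 14 and 16 for APP/PS1 and 33, 40 and 40 for Cx43 cKO. Its difference between WT and APP/PS1 did not pass on counts (log2 -0.40, SE 0.28, edgeR adjusted p 0.228) and passed on TPM (-0.37, limma adjusted p 0.0115). Plk1, a kinase of centrosome and kinetochore, had 131, 136 and 146 counts for WT, 41, 40 and 55 for APP/PS1 and 160, 211 and 180 for Cx43 cKO. That is a change of -1.47 (SE 0.14) and then 1.97 (SE 0.14), and Aurka, the centrosome kinase, moved by -0.95 and 1.56.

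Cks2, a small subunit that binds Cdk1, departed from the other entry genes. It had 372, 350 and 310 counts for WT, 424, 387 and 425 for APP/PS1 and 431, 335 and 333 for Cx43 cKO, where the first Cx43 cKO library stood above the others. It stood above WT in APP/PS1 (log2 0.39, SE 0.10, edgeR adjusted p 0.00381), did not differ past the threshold between Cx43 cKO and APP/PS1 (-0.21, SE 0.10, edgeR adjusted p 0.0855) and passed there without Cx43 cKO library 1 (-0.35, edgeR adjusted p 0.000565). In a fit blocked on replicate number it passed there too (-0.22, edgeR adjusted p 0.00446). Against WT the APP/PS1 value did not pass on FPKM (0.25, limma adjusted p 0.0514) and was near 0 on TPM (0.0024, limma adjusted p 0.984). Cks2 is the shortest member, with an effective length of 645 nt as the deposited counts and FPKM imply. Short transcripts stood higher in APP/PS1 in general. Among the tested genes in the shortest of 10 length bins (median 857 nt) the median log2 change was 0.63 in APP/PS1 against WT and -0.53 in Cx43 cKO against APP/PS1. With offsets for length, Cks2 was lower in APP/PS1 than in WT (-0.28, edgeR adjusted p 0.0327) and higher in Cx43 cKO relative to APP/PS1 (0.29, edgeR adjusted p 0.0271). Gins1 was then also lower (-0.48, edgeR adjusted p 0.00221) and higher (0.49, edgeR adjusted p 0.00208), and Gins2 was higher in Cx43 cKO relative to APP/PS1 (0.60, edgeR adjusted p 0.00314) after not passing in APP/PS1 against WT (-0.37, edgeR adjusted p 0.0628). With the offsets and a block on replicate number, Gins2 did pass as lower in APP/PS1 than in WT (-0.37, edgeR adjusted p 0.0343). Tyms, which is not short, was higher in APP/PS1 with these offsets (0.20, edgeR adjusted p 0.0233) and lower on TPM (-0.24, limma adjusted p 0.00916). Of the 7 shortest members (645 to 1211 nt), Tk1, Birc5 and Ube2c were called lower in APP/PS1 without offsets, and Pcna, Cks2, Gins1 and Gins2 were not.

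The checkpoint and kinetochore members, which hold anaphase until chromosomes are attached, were lower in 6 of 6 in APP/PS1 than in WT. In Cx43 cKO 6 of 6 were higher than in APP/PS1. Among all tested genes 32% were lower in the first of these comparisons and 27.3% higher in the second. Aurkb, the kinase of the chromosomal passenger complex, fell most of all mitotic members. Its counts were 125, 129 and 129 for WT, 34, 35 and 26 for APP/PS1 and 142, 168 and 179 for Cx43 cKO, a 3.67-fold fall (log2 -1.88, SE 0.15, edgeR adjusted p 1.97e-11) and a 4.97-fold difference upward (log2 2.31, SE 0.14). Birc5, the survivin subunit of the same complex, moved less, by -0.87 and 1.11. Bub1 and Bub1b, the checkpoint kinases, changed by -0.83 and -0.84 and then by 1.47 and 1.5. Cenpe, a kinetochore motor, had 148, 146 and 143 counts for WT, 67, 53 and 72 for APP/PS1 and 291, 282 and 258 for Cx43 cKO. It was the member farthest above WT in Cx43 cKO (log2 1.01, SE 0.09, edgeR adjusted p 6.89e-10), followed by Ccnb2 (0.99), Cenpf (0.98) and Cdc25c (0.97). The 5 smallest mitotic changes past the threshold in that comparison were those of Aurkb (0.44), Plk1 (0.50), Ccna2 (0.50), Nusap1 (0.55) and Cdc25b (0.55), and Aurkb did not pass on TPM (0.21, limma adjusted p 0.0611).

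The 4 spindle members moved together. Kif11, the motor that pushes the poles apart, had 418, 413 and 374 counts for WT, 141, 134 and 159 for APP/PS1 and 584, 584 and 591 for Cx43 cKO, and its groups did not overlap. Kif20a, a motor of cytokinesis, had 101, 138 and 116 counts for WT, 36, 43 and 39 for APP/PS1 and 190, 222 and 201 for Cx43 cKO, the largest difference of a mitotic member between Cx43 cKO and APP/PS1 (5.02-fold, log2 2.33, SE 0.13, edgeR adjusted p 3.47e-14). Tpx2 and Nusap1, which build spindle microtubules, fell by 1.41 and 1.09 in APP/PS1 and were higher by 2.10 and 1.64 in Cx43 cKO than in APP/PS1. The 2 members of mitotic exit act in the anaphase-promoting complex. Cdc20, its activator, had 159, 145 and 149 counts for WT, 57, 46 and 51 for APP/PS1 and 241, 238 and 258 for Cx43 cKO, and Ube2c, its ubiquitin-conjugating enzyme, had 217, 185 and 204, then 81, 72 and 67, then 300, 298 and 275. Both changed by over 2-fold in each of the comparisons with APP/PS1, Cdc20 by -1.42 and 2.21 and Ube2c by -1.33 and 1.94.

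Between Cx43 cKO and WT no test of a difference between roles was made, and the values are given by role as a description. The median log2 change was 0.76 for Mki67 and Top2a, 0.70 for mitotic exit, 0.66 for the spindle, 0.65 for checkpoint and kinetochore and 0.61 for mitotic entry. Among S phase roles it was 0.60 for Uhrf1 and Brca1, 0.46 for the entry genes, 0.29 for the fork, 0.27 for nucleotide supply and 0.19 for licensing. Dna2 (0.79), E2f1 (0.76), Brca1 (0.73) and E2f8 (0.70) were the S phase members farthest above WT. The 5 nearest to WT among those past the threshold were Mcm3 (0.18), Mcm7 (0.19), Fen1 (0.26), Tk1 (0.27) and Rrm1 (0.27), with SEs of 0.04 to 0.09. Tk1 did not pass without WT library 3 (log2 0.23, edgeR adjusted p 0.0622), with DESeq2 (0.29, DESeq2 adjusted p 0.0987), in the edgeR fit on unscaled totals (0.16, adjusted p 0.124) or, with the smallest change, with offsets for transcript length (0.10, edgeR adjusted p 0.367). The 13 members that did not pass were Ccne1, Ccne2, Cdc6, Cdt1, Mcm4, Gins1, Gins2, Mcm10, Pcna, Pola1, Tyms, Birc5 and Cks2. Gins2 passed without WT library 2 (0.52, edgeR adjusted p 0.0247) or without Cx43 cKO library 1 (0.51, edgeR adjusted p 0.0202), and Birc5 without WT library 3 (0.29, edgeR adjusted p 0.0433). In the fit blocked on replicate number, Pcna (0.063, edgeR adjusted p 0.0182), Gins2 (0.39, 0.0268), Cks2 (0.18, 0.0263) and Birc5 (0.23, 0.0375) passed. With the size factors of DESeq2 in edgeR, Gins2 (0.41, adjusted p 0.0411), Birc5 (0.26, 0.0350), Pcna (0.088, 0.0302) and Mcm4 (0.13, 0.0499) passed, which made 19 S phase members. Birc5 also passed on FPKM (0.23, limma adjusted p 0.0385), and Gins2 in a fit of the 2 groups compared (0.39, edgeR adjusted p 0.0468). The S phase part of this comparison depended on the unit. On TPM, whose scale moves the median of all genes to -0.18, 10 S phase members passed, 8 higher and 2 lower, and 20 mitotic members passed. The 2 lower were Pcna (-0.13, limma adjusted p 0.00308) and Cdt1 (-0.13, limma adjusted p 0.0296). Mcm3 (-0.035, limma adjusted p 0.471) and Mcm7 (-0.019, limma adjusted p 0.761) did not pass there. With library totals 12 S phase members passed, and Pcna, Cdt1, Mcm4, Pola1 and Tyms, none of them called by edgeR with TMM factors, lay below WT.

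The 27 S phase and the 23 mitotic members were then set against each other. Their summed levels showed how far each class moved. S phase members summed to 585 CPM ± 2.29 for WT, 469 CPM ± 7.46 for APP/PS1 and 687 CPM ± 2.09 for Cx43 cKO (SD, n = 3). The S phase sum was thus 1.17-fold higher in Cx43 cKO relative to WT on CPM, whereas on FPKM the ratio was 1.05 (314 against 298) and on TPM 0.99 (657 against 663), so that this order did not hold on TPM. Without Pcna the TPM sum was 384 in Cx43 cKO against 363 in WT, a ratio of 1.06. Mitotic members summed to 292 CPM ± 11.4, 145 CPM ± 3.49 and 468 CPM ± 8.13. The ratio of the S phase sum to the mitotic sum was 1.91, 2.04 and 2.07 for WT, 3.14, 3.28 and 3.26 for APP/PS1 and 1.44, 1.48 and 1.49 for Cx43 cKO, so the groups did not overlap. Pcna makes up much of the S phase sum. Without it the mean ratios were 1.48, 1.88 and 1.12, in the same order and closer together. On FPKM, with Pcna, they were 2.56, 3.64 and 1.97. The mitotic median change lay farther from 0 than the S phase median in all 3 comparisons and under each of the 21 alternative settings run. No test of these sums or medians was made, since the members were chosen with results known.

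**Figure D3:**
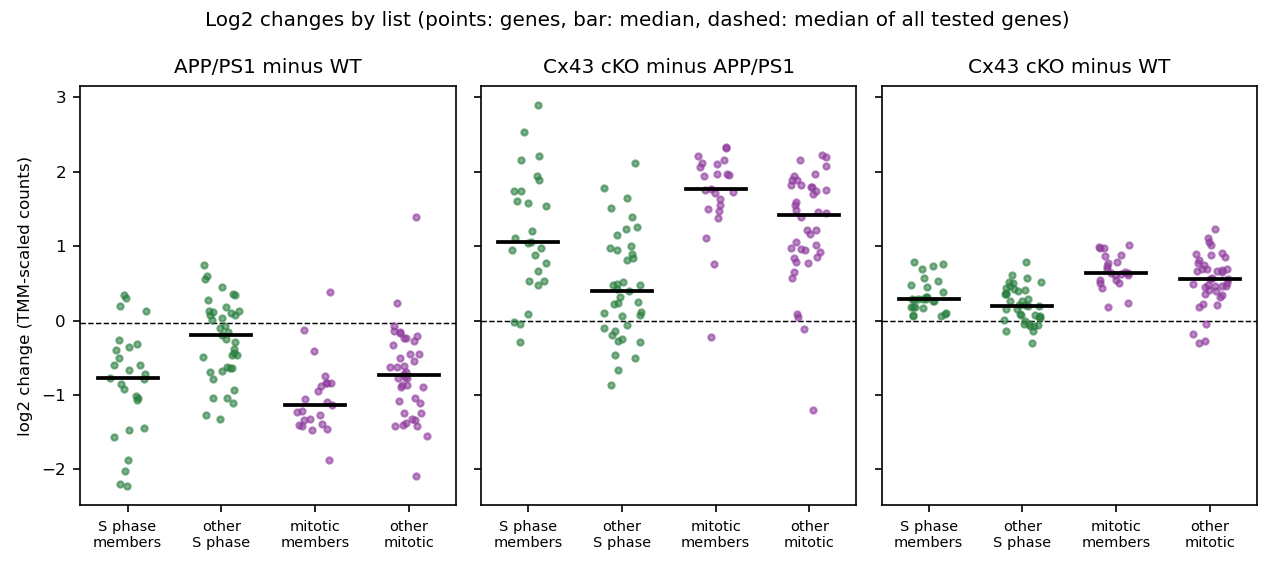
Log2 change (vertical axis, TMM-scaled counts) of single genes (points) in the S phase and mitotic members and in 2 lists of other genes of the same phases, with list medians (bars) and the median of all tested genes (dashed), for the 3 comparisons. The median of the mitotic members lies farther from 0 than that of the S phase members in each panel.

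Per unit of length the members spanned a wide range. Averaged over all 9 libraries, Pcna (140 FPKM), Cks2 (30.1), Mcm3 (21.6), Mcm7 (11.7), Cdt1 (11.6) and Ube2c (11.1) had the highest levels and Brca1 (0.66), Cdc25c (0.68) and Mcm10 (0.69) the lowest. These means pool groups that differ, and the order changed within a group. In APP/PS1 alone Cdc6 (0.25 FPKM), Mcm10 (0.25) and Ccne1 (0.29) were lowest, and Ube2c (4.32) lay below Fen1 (7.94) and Mcm6 (7.05). Pcna, Cks2 and Mcm3 were the 3 highest in each group. All 50 members were tested, 49 of them above the count filter in every library and Ccne1 in 8 of 9. The 2 members with the highest FPKM, both among the 7 shortest, were thus also those that were called higher in APP/PS1. On CPM over all libraries Cks2 (19.5) lay below Mki67 (65.0), Mcm3 (61.8) and Top2a (46.3).

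Other genes of the same phases came from lists written for their textbook roles. Of 39 other S phase genes, 19 were lower and 8 higher in APP/PS1 than in WT by the edgeR test (median log2 -0.19), where 32% of all tested genes were lower and 26.9% higher. In Cx43 cKO relative to APP/PS1, 24 were higher and 8 lower (median 0.40), where 27.3% of all tested genes were higher and 27.7% lower. Clspn, a mediator of the replication checkpoint, changed by -1.32 and 2.12, Asf1b, a histone chaperone, by -1.27 and 1.78, and Chaf1a, of the chromatin assembly factor, by -1.11 and 1.52. Exo1, an exonuclease of mismatch repair, changed by -1.03 and 1.65. The origin subunits Orc4 and Orc5, which bind DNA throughout the cycle, rose by 0.46 and 0.60 in APP/PS1. Of 40 other mitotic genes, 33 were lower and 2 higher in APP/PS1 than in WT (median -0.74), and 36 were higher and 2 lower in Cx43 cKO relative to APP/PS1 (median 1.42). Mybl2, which encodes B-Myb, fell most, by 2.09, and was higher by 1.79 in Cx43 cKO than in APP/PS1, yet it was lower there than in WT (-0.30, SE 0.11, edgeR adjusted p 0.0350). The chromosome motor Kif22 changed by -1.55 and 2.22, Cdca8, of the chromosomal passenger complex, by -1.42 and 1.89, Ccnf, the F-box cyclin, by -1.41 and 2.16, and Foxm1 by -0.87 and 1.75. Pttg1, the securin that restrains separase, went against the list, with 18 CPM ± 1.49 for WT, 47.3 CPM ± 2.78 for APP/PS1 and 20.5 CPM ± 0.51 for Cx43 cKO (SD, n = 3). Against WT, Cx43 cKO was higher in 18 and lower in 2 of the other S phase genes (median 0.19), and higher in 35 and lower in 3 of the other mitotic genes (median 0.56), where 24.7% of all tested genes were higher and 23% lower. The former were led by Clspn (0.79), Chaf1b (0.57), of the chromatin assembly factor, and Hells (0.52), a chromatin remodeller, and the latter by Ckap2 (1.23), Kif23 (1.11) and Nek2 (1.05).

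Of 35 cell cycle control genes, 20 were lower and 7 higher in APP/PS1 than in WT (median -0.20), 20 were higher and 3 lower in Cx43 cKO relative to APP/PS1 (median 0.17), and 18 were higher and 7 lower in Cx43 cKO relative to WT (median 0.25). Of all tested genes 32% were lower and 26.9% higher in the first comparison, 27.3% higher and 27.7% lower in the second, and 24.7% higher and 23% lower in the third. E2f2, an activating E2F, fell by 1.65 in APP/PS1 and was higher by 2.25 in Cx43 cKO, and the repressor E2f7 by 0.93 and 1.89. Pkmyt1, a kinase that inhibits Cdk1, changed by -0.86 and 1.29. Ccnd3, a D cyclin that starts the cycle, changed by -0.78 and 1.06, whereas Ccnd1 changed by only -0.10 and 0.15. The first Ccnd1 value did not pass without WT library 3 (-0.076, edgeR adjusted p 0.117) or without APP/PS1 library 1 (-0.085, edgeR adjusted p 0.0741). Nor did it pass with the size factors of DESeq2 in edgeR (-0.077, adjusted p 0.0655), with DESeq2 (-0.079, DESeq2 adjusted p 0.148) or in a fit of the 2 groups compared (-0.062, edgeR adjusted p 0.140). With offsets for transcript length it was -0.022 (edgeR adjusted p 0.62). Of 7 inhibitors of cyclin-dependent kinases among these genes, 3 were higher and 3 lower in APP/PS1 than in WT, 4 higher and 1 lower in Cx43 cKO relative to APP/PS1, and 5 higher and 1 lower in Cx43 cKO relative to WT. Cdkn1a, which encodes p21, was at 266 CPM ± 10.6 for WT, 378 CPM ± 11.2 for APP/PS1 and 486 CPM ± 13.6 for Cx43 cKO (SD, n = 3), and it passed in each comparison (0.51, 0.36 and 0.87). Cdkn2a, the p16 locus, was scarce at 0.28 CPM ± 0.20, 2.06 CPM ± 0.25 and 1.43 CPM ± 0.20. Relative to WT it was higher in both other groups (2.85 and 2.33) and did not pass between the latter (-0.52, SE 0.25, edgeR adjusted p 0.0872).

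Markers of other CD45-bearing and blood cells moved between the same groups. The 8 early neutrophil markers, among them Mpo, Elane and Prtn3 of the primary granules, summed to 530 to 557 CPM for WT, 10.3 to 12.7 for APP/PS1 and 356 to 371 for Cx43 cKO. All 8 were lower in APP/PS1 than in WT and higher in Cx43 cKO relative to APP/PS1 by the edgeR test, while against WT 2 were higher and 5 lower in Cx43 cKO. Of all tested genes 32% were lower in APP/PS1 than in WT, 27.3% were higher in Cx43 cKO relative to APP/PS1, and 24.7% were higher and 23% lower in Cx43 cKO relative to WT. None was at 0 in a whole group, and Mpo had 77 to 114 counts in APP/PS1. Mpo carried most of the sum, at a mean of 303 CPM for WT, and the 2 above WT in Cx43 cKO were Cebpe (log2 1.32) and Fcnb (0.86). The 7 markers of the granule stage summed to 1606 to 1621 CPM, 330 to 336 and 5394 to 5426, and the 6 mature neutrophil markers to 2139 to 2193, 1185 to 1261 and 5267 to 5347, both in the order of the mitotic sum. The 6 monocyte markers summed to 521 to 538, 257 to 278 and 521 to 536 CPM. The 10 erythroid markers summed to 1281 to 1337 CPM for WT, 319 to 345 for APP/PS1 and 171 to 186 for Cx43 cKO, and Kel had 0, 0 and 1 counts in APP/PS1. Their part in the results on the members was not tested.

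**Figure D4:**
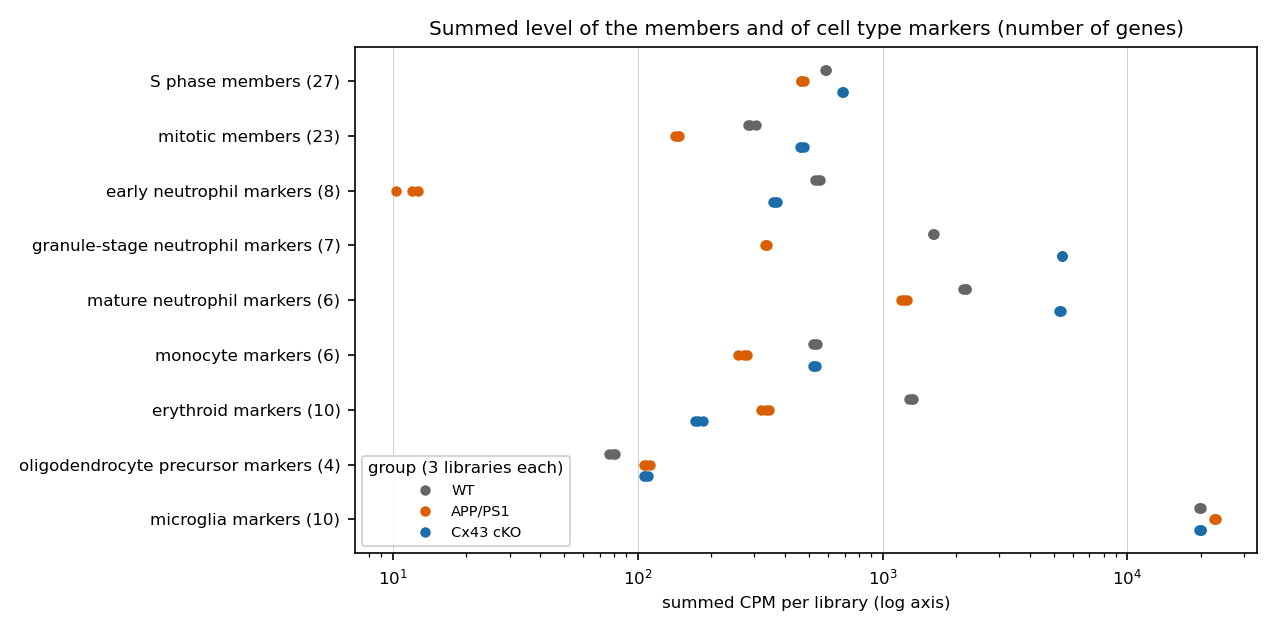
Summed CPM (horizontal log axis) of the members and of marker lists of other cell types (vertical axis, number of genes in brackets), 1 point per library coloured by group. APP/PS1 is lowest for both classes of members and for the neutrophil and monocyte lists, while erythroid markers are lowest in Cx43 cKO.

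The 8 B cell progenitor markers summed to 20.5 to 23 CPM in WT, 10 to 11.1 in APP/PS1, with Rag2 at 0, and 13.1 to 13.8 in Cx43 cKO. Ebf1 carried most of this sum, at mean levels of 15, 9.74 and 9.65 CPM. Of the 4 that could be tested, Rag1 and Vpreb3 were called higher in Cx43 cKO than in both other groups by the edgeR test (log2 3.09 and 1.56 against WT), while Pax5 (-1.90) and Ebf1 (-0.63) were called lower in Cx43 cKO than in WT. The counts of Rag1 and Vpreb3 were low, 2, 3 and 1 for WT, 0, 1 and 1 for APP/PS1 and 15, 17 and 19 for Cx43 cKO in Rag1, and 7, 3 and 2, then 0, 1 and 0, then 11, 12 and 11 in Vpreb3. The 4 B cell markers summed to 25 to 27.2, 9.61 to 11.1 and 17.9 to 18.6 CPM, and the 6 T and NK cell markers to 30.3 to 32.3, 54 to 55 and 35.1 to 37 CPM. The 5 neural progenitor markers, at 5.18 to 11.1 CPM in all libraries, and the 4 oligodendrocyte precursor markers, at 76.5 to 80.8, 106 to 112 and 107 to 111 CPM, did not follow the members. The 5 astrocyte markers summed to 412 to 424, 602 to 625 and 470 to 480 CPM, the 4 endothelial markers to 330 to 341, 326 to 334 and 276 to 285, and the 5 stem and progenitor markers to 268 to 276, 316 to 343 and 370 to 389. In the last list Kit had 126, 131 and 181 counts for WT, 59, 53 and 62 for APP/PS1 and 145, 135 and 136 for Cx43 cKO. Flt3 went the same way, with log2 changes of -0.90 in APP/PS1 against WT and 0.69 in Cx43 cKO against APP/PS1. The other markers of this list did not. Cd34, which carried most of the sum, rose in both of these comparisons (0.37 and 0.19). Gata2 fell in the first (-0.59) and did not pass in the second (0.06, edgeR adjusted p 0.595). Meis1 did not pass in any comparison. The 10 microglia markers summed to 19684 to 20040 CPM for WT, 22598 to 22998 for APP/PS1 and 19689 to 19967 for Cx43 cKO, highest in APP/PS1, with WT and Cx43 cKO overlapping. Single markers differed in direction, with 6 higher and 3 lower in APP/PS1 than in WT, 2 higher and 6 lower in Cx43 cKO relative to APP/PS1, and 6 higher and 4 lower in Cx43 cKO relative to WT by the edgeR test. The shares of all tested genes were 26.9% higher and 32% lower, 27.3% and 27.7%, and 24.7% and 23% in the same order. Lower in APP/PS1 were Csf1r (-0.48), Tmem119 (-0.31) and Sall1 (-0.17). Cx3cr1, whose locus carries the recombinase in Cx43 cKO, did not pass in APP/PS1 against WT (-0.02, edgeR adjusted p 0.545) and was lower in Cx43 cKO against both (-0.88 and -0.90). The part of these lists in the results was likewise not tested.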

How the data were processed

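Poly-A RNA was sequenced as single-end reads of 50 nt with DNBSEQ chemistry, as the labels' protocols state. Per the submitters' processing notes HISAT, Bowtie2 and DESeq2 were used with GRCm38.p6. Their versions and roles, and the counting program, are not given in the sources used here. Per the file headers, the deposited table holds for each library FPKM, TPM, estimated counts and normalised counts, and each column was mapped by name. Since the deposited estimated counts have decimals, they were rounded, although the design had assumed plain counts. The deposited FPKM values are scaled by the authors to library size and length, and the deposited TPM values sum to 1e+06 per library. The deposited normalised counts, a signal scaled per library, were not used for tests.

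Counts of all 9 libraries were fitted in edgeR 4.0.16 (R 4.3.3) by the quasi-likelihood test with TMM factors, filterByExpr by group (a cutoff of 0.518 CPM), robust dispersion and a mean per group. CPM uses TMM-scaled totals, and log2 changes come from this fit. P-values were adjusted by Benjamini-Hochberg across 14696 tested genes, with a threshold of 0.05. Effective length is the ratio of deposited count to FPKM (13911 genes). Chi-square per gene between libraries of a group was 1.74 to 3.33, so no pair agreed within sampling noise. The total counts limit precision for genes with few counts. PCR copies were not told apart.

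Members and lists were chosen with earlier results of these data known. In each comparison the members given in detail are the 5 largest and 5 smallest changes past the threshold per class without overlap of the groups and averaging 0.5 CPM or more, plus Mki67, Top2a, Cdk1, Mcm2, Mcm5, Pcna, Ccne1 and E2f1. From each other list they are the 3 largest, and Cdkn1a, Ccnd1 and Csf1r. Pttg1, Foxm1, Ccnd3, Orc4, Orc5 and the single markers of other cell types were named after their values were seen. Alternatives were DESeq2 1.42.0 (its size factors in edgeR, and its Wald test), library totals, no filter, a minimum of 10 counts per library, a fit of just the groups compared, the replicate number as a block, offsets by 10 bins of length with and without the block, limma 3.58.1 on log2 FPKM (pseudocounts 1 and 0.1) and log2 TPM (1), an adjusted p of 0.01, and each library left out. Steps were tested on simulated data.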

Additional observations from a re-analysis of the deposited data

How the results depend on the processing

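Of the 6 counts of members called, 5 stayed within 1.5 times their value under every alternative run. The exception was the S phase members of Cx43 cKO against WT, 16 by edgeR and 10 on log2(TPM + 1). It was 12 with library totals and on log2(FPKM + 1), and 19 with the size factors of DESeq2. Leaving out each library in turn gave 15 to 17 for this count, 23 to 24 for S phase in APP/PS1 against WT and 24 in Cx43 cKO against APP/PS1. For mitotic members it gave 21, 22 to 23 and 21 to 22 in the 3 comparisons. The replicate block gave S phase and mitotic counts of 24 and 21 in APP/PS1 against WT, 24 and 23 in Cx43 cKO against APP/PS1, and 18 and 23 in Cx43 cKO against WT. Every one of the 9 libraries correlated best with its own number, a hint from the data and not the design (mean r 0.20 over 9 same-numbered pairs, of which 8 were over 0.1, and -0.10 over 18 others). Group means were subtracted before correlating, so the second mean largely follows from the first and adds little. With the block the biological coefficient of variation was 0.988%, beside 3.14% without it. The pair at or under 0.1 was the third of APP/PS1 and Cx43 cKO (0.064), while those of WT and Cx43 cKO were at 0.30, 0.20 and 0.11. The labels give the number no meaning, and over all 9 pairs the libraries were taken as sharing only a number. With the block, Cks2 passed in Cx43 cKO against APP/PS1 (-0.22), and Pcna (0.063), Gins2 (0.39), Cks2 (0.18), Birc5 (0.23) and Ccnd1 (0.057) passed in Cx43 cKO against WT.

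In APP/PS1 against WT 42 of 45 called members kept their call in each of the 21 settings that tested them (not Cks2, Dna2 and Pcna), in Cx43 cKO against APP/PS1 46 of 46, and in Cx43 cKO against WT 27 of 37 (not Aurkb, Fen1, Mcm2, Mcm3, Mcm6, Mcm7, Rrm1, Rrm2, Tk1 and Uhrf1). Scale mattered because it moves all genes. The median of all genes in APP/PS1 against WT was -0.17 with library totals and -0.38 on TPM, and 45.7% of all called genes were higher with TMM, 29.5% with totals and 15.0% on TPM. In Cx43 cKO against APP/PS1 the median was 0.17 on TPM, with 75.7% higher against 49.6% with TMM. In Cx43 cKO against WT it was -0.12 with totals and -0.18 on TPM, with 30.4% and 20% higher against 51.9% with TMM. The S phase median there ran from 0.08 to 0.31 and the mitotic median from 0.40 to 0.70.

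Direction turned in these cases, and beyond the scale or length term itself the cause was not tested. With length offsets, without and with the block, APP/PS1 against WT was -0.28 and -0.28 for Cks2, -0.48 and -0.48 for Gins1 and -0.37 and -0.37 for Gins2, Cx43 cKO against APP/PS1 was 0.49 and 0.49 for Gins1 and 0.29 and 0.29 for Cks2, and Cx43 cKO against WT was -0.015 and -0.015 for Pcna. On TPM, APP/PS1 against WT was -0.049 for Pcna, -0.14 for Gins1, -0.084 for Gins2 and -0.24 for Tyms. Cx43 cKO against APP/PS1 was there 0.13 for Gins1 and 0.13 for Tyms, and Cx43 cKO against WT -0.035 for Mcm3, -0.019 for Mcm7, -0.13 for Pcna, -0.14 for Ccnd1, -0.026 for Cks2, -0.0078 for Cdc6, -0.13 for Cdt1, -0.089 for Mcm4, -0.0088 for Gins1, -0.089 for Pola1 and -0.11 for Tyms. With library totals, Tyms was -0.010 in APP/PS1 against WT, Gins1 0.0072 in Cx43 cKO against APP/PS1, and Pcna -0.044, Ccnd1 -0.050, Cdt1 -0.041, Mcm4 -0.0044, Pola1 -0.015 and Tyms -0.031 in Cx43 cKO against WT. On FPKM with pseudocounts 1 and 0.1, Tyms was -0.0096 and -0.011 in APP/PS1 against WT, and in Cx43 cKO against WT Pcna -0.044 and -0.044, Ccnd1 -0.048 and -0.049, Cdt1 -0.038 and -0.041, Mcm4 -0.0035 and -0.0038, Pola1 -0.011 and -0.015 and Tyms -0.025 and -0.029. With single libraries left out, Gins1 in Cx43 cKO against APP/PS1 ran from -0.0655 to 0.051 and Gins2 from -0.0070 to 0.23, and Tyms in Cx43 cKO against WT from -0.000111 to 0.12. The members with the lowest mean CPM, where depth limits precision most, were Cdc25c, Ccne1, Mcm10, Ccne2, Gins2 and Cdc6.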

Other observations

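Of 8 genes that govern the number of microglia 1 was higher and 5 lower in APP/PS1 than in WT, 4 higher and 2 lower in Cx43 cKO relative to APP/PS1, and 1 higher and 3 lower in Cx43 cKO relative to WT by the edgeR test. Of all tested genes 26.9% were higher and 32% lower in the first of these comparisons, 27.3% and 27.7% in the second, and 24.7% and 23% in the third. Csf1r, the receptor on which microglia depend for survival, had 133079, 134139 and 135031 counts for WT, 86090, 88702 and 87782 for APP/PS1 and 104160, 106444 and 106195 for Cx43 cKO, so that Cx43 cKO lay between the others (log2 -0.48, 0.23 and -0.26 in the 3 comparisons). Its ligand Csf1 was at 309 CPM ± 11.8 for WT, 900 CPM ± 26.6 for APP/PS1 and 1136 CPM ± 36.3 for Cx43 cKO (SD, n = 3). It was thus highest in Cx43 cKO and lowest in WT, and its part in the results on the members was not tested. Il34, the other ligand, was lower in APP/PS1 than in WT by -0.61 and in Cx43 cKO than in WT by -0.81. Myc, a growth factor response gene, changed by -0.51, 0.36 and -0.15, and the myeloid factor Spi1 by -0.19, 0.23 and 0.05, of which the last did not pass.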
